A study of Mus musculus with 13 samples.

Results

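The genes described here coat lipid droplets or make and break the triglyceride inside them: Plin1, Plin2, Plin3, Plin4, Plin5, Cidec, Hilpda, Dgat1, Dgat2 and Pnpla2. They were taken by name from RNA sequencing of mouse adrenal glands, as 10 of the 14078 genes whose transcripts are listed for every library, and all 10 were tested. The 13 libraries came from C57BL/6 adrenal gland, 5 from before TAM, 4 from 24 h after TAM and 4 from 8 weeks after TAM, in a line where TAM deletes Star, whose protein carries cholesterol into mitochondria so that steroids can be made. The labels name neither the Cre driver nor the floxed allele, and they do not say whether each library came from its own animal, so the spread behind every p-value is that between libraries. No library here is from mice that had TAM but kept Star, so the effects of time, TAM and loss of Star cannot be told apart.

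A lipid droplet is a core of neutral lipid, triglyceride or sterol ester, wrapped in a single phospholipid layer that carries coat proteins. Perilipins (the Plin genes) form much of that coat and set how easily lipases reach the core, DGAT enzymes make the triglyceride, and ATGL (Pnpla2) begins its breakdown. Steroid-making cells of the adrenal cortex are known for droplets rich in cholesterol ester, the store from which steroids are made, while fat cells around and within dissected glands carry triglyceride droplets coated chiefly by Plin1 and Cidec. In whole-gland RNA, fewer cells of a type and less RNA per cell cannot be told apart.

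The promoters of 3 genes are shown because these genes stand for the contrasting patterns described below, Plin2 and Hilpda for genes with no called slope on fat-cell RNA and Cidec for the gene with the steepest one. Each window runs from 250 bases before to 25 bases after an annotated start (RefSeq, GRCm38.p6), 5′ to 3′ on the strand of the gene, at chr4:86670035-86670309 (minus strand) for Plin2, chr6:29272376-29272650 (plus strand) for the downstream start of Hilpda, and chr6:113435736-113436010 (minus strand) for the upstream start of Cidec. Capitals mark matches on either strand to the motifs searched, which were the TATA box as TATAAA, the inverted or upright CCAAT box, the hypoxia response core as ACGTG, the E-box as CACGTG (which contains the hypoxia core), the nuclear receptor half-site as AGGTCA, the direct repeat of that half-site with 1 base between, and the GC box as GGGCGG.
Plin2: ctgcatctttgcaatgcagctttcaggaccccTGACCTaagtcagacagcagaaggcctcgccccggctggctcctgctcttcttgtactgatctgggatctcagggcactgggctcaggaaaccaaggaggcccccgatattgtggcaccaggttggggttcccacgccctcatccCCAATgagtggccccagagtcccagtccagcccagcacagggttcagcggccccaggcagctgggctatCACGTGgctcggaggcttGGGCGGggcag
Hilpda: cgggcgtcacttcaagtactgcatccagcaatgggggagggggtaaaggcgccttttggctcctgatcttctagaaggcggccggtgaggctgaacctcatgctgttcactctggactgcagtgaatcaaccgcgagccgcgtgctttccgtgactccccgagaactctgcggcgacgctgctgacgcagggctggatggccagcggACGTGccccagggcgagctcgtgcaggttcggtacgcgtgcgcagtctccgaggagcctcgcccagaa
Cidec: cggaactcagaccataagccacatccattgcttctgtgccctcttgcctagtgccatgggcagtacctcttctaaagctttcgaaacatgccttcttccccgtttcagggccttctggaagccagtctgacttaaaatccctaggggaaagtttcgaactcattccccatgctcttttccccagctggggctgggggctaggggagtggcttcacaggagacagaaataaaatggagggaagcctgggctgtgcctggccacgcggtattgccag
The Plin2 window held CCAAT at -73, CACGTG at -4, the reverse of AGGTCA at -218 and GGGCGG at 14, counted from the start. The Hilpda window held ACGTG at -43, and the Cidec window held none of the 7 motifs. RefSeq windows were found for 8 of the 10 genes. ACGTG was found for 2 of these (Hilpda and Plin2), CACGTG for 1 (Plin2), CCAAT for 4, GGGCGG for 5, AGGTCA for 2, and TATAAA and the direct repeat for 0. A gene was counted if any of its windows matched, and Plin5, Cidec and Hilpda have 2 windows each. The shares that follow are per window, so they are not like for like. The upstream Hilpda window, not shown, held GGGCGG and no ACGTG. Among 32851 mouse promoter windows of this length, 18.2% held ACGTG, 6.68% CACGTG, 35.8% CCAAT, 34.4% GGGCGG, 15.2% AGGTCA, 13% TATAAA and 0.0365% the direct repeat. A match describes letters in the window and does not locate a bound factor.

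Listed reads per library ran from 17331673 to 27309429. Star averaged 3797 ± 399 FPKM (fragments scaled by transcript length and library total) before TAM, 335 ± 274 at 24 h and 146 ± 50.8 at 8 weeks (SD, n = 5, 4 and 4). The summed FPKM of 8 cortex markers ran from 18460 to 24520 before TAM, from 4355 to 19040 at 24 h and from 1553 to 3740 at 8 weeks. In 24 h replicate 3 the sum was carried mostly by Hsd3b1 (3024 FPKM), while Cyp11b1 stood at 1.07 FPKM, Cyp21a1 at 2.42 and Mc2r at 0.132, each far below the other 24 h libraries, whose lowest values were 969, 1391 and 109 FPKM. Summed medulla markers were 18.6 FPKM in 24 h replicate 3 and 115 in 24 h replicate 4. This sum ran from 1162 to 5115 FPKM in the libraries from before and from 5084 to 7552 at 8 weeks. Summed macrophage markers ran from 348 to 1001 FPKM before TAM, from 2019 to 3725 at 24 h and from 4645 to 8981 at 8 weeks, and 10 of 10 rose at 24 h and at 8 weeks against before. Of 6 skeletal muscle markers 1 was listed throughout (Myl1, at most 10.6 FPKM), and the liver gene Alb stood at 13280 FPKM in 8 weeks replicate 3 and at 978 FPKM in before replicate 5.

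Fat-cell RNA was read from 8 markers (Adipoq, Cfd, Retn, Lep, Adig, Trarg1, Acvr1c, Adrb3), and it set apart 2 libraries. Their summed FPKM was 12, 797, 911, 678 and 950 in the 5 libraries from before TAM, 2338, 657, 0.972 and 898 at 24 h, and 7914, 3202, 4349 and 6133 at 8 weeks. Before replicate 1 and 24 h replicate 3 were far below every other library, with Adig at 0 in before replicate 1 and Lep and Adig at 0 in 24 h replicate 3, while every 8-week library was above every earlier one in this sum. Cfd was the most abundant of the 8, at 2260 to 5027 FPKM at 8 weeks. Lep went the other way, at 0.959 ± 1.67 FPKM at 8 weeks and 2.47 ± 2.53 before (SD, log2 fold change -1.24, not called). Acvr1c overlapped, with 2.44 FPKM as its lowest 8-week value and 3.12 as its highest before TAM. In the test across all genes 2 of the 8 (Adig and Retn) passed at 8 weeks against before, and the median log2 fold change of the list was 2.67. Brown fat markers also differed, with 5 of 5 higher at 8 weeks and Ucp1 between 279 and 1349 FPKM at 8 weeks, against 0.149 to 93.5 FPKM before. The level of each droplet gene is therefore given library by library and set against these values.

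At 8 weeks 5 of the 10 genes rose against before (Dgat1, Plin5, Plin2, Pnpla2 and Hilpda) and 0 fell, where 36.9% of all genes tested were called, 20.5% higher and 16.4% lower. A call is an adjusted p under 0.05 in the quasi-likelihood test of edgeR across all genes. At 24 h only Hilpda of the 10 was called against before, higher, where 19.2% of all genes were called, 12.6% higher and 6.63% lower. Between 8 weeks and 24 h, Dgat1 and Pnpla2 were called higher, where 20.8% of all genes were called, 10.1% higher and 10.6% lower. The median log2 fold change of the 10 genes was 1.84 at 8 weeks against before, beside 0.03 for all genes, and 0.21 at 24 h against before, beside 0.03 for all genes. Each pair of these comparisons shares a group of libraries, so their values are given side by side only.

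**Figure D1:**
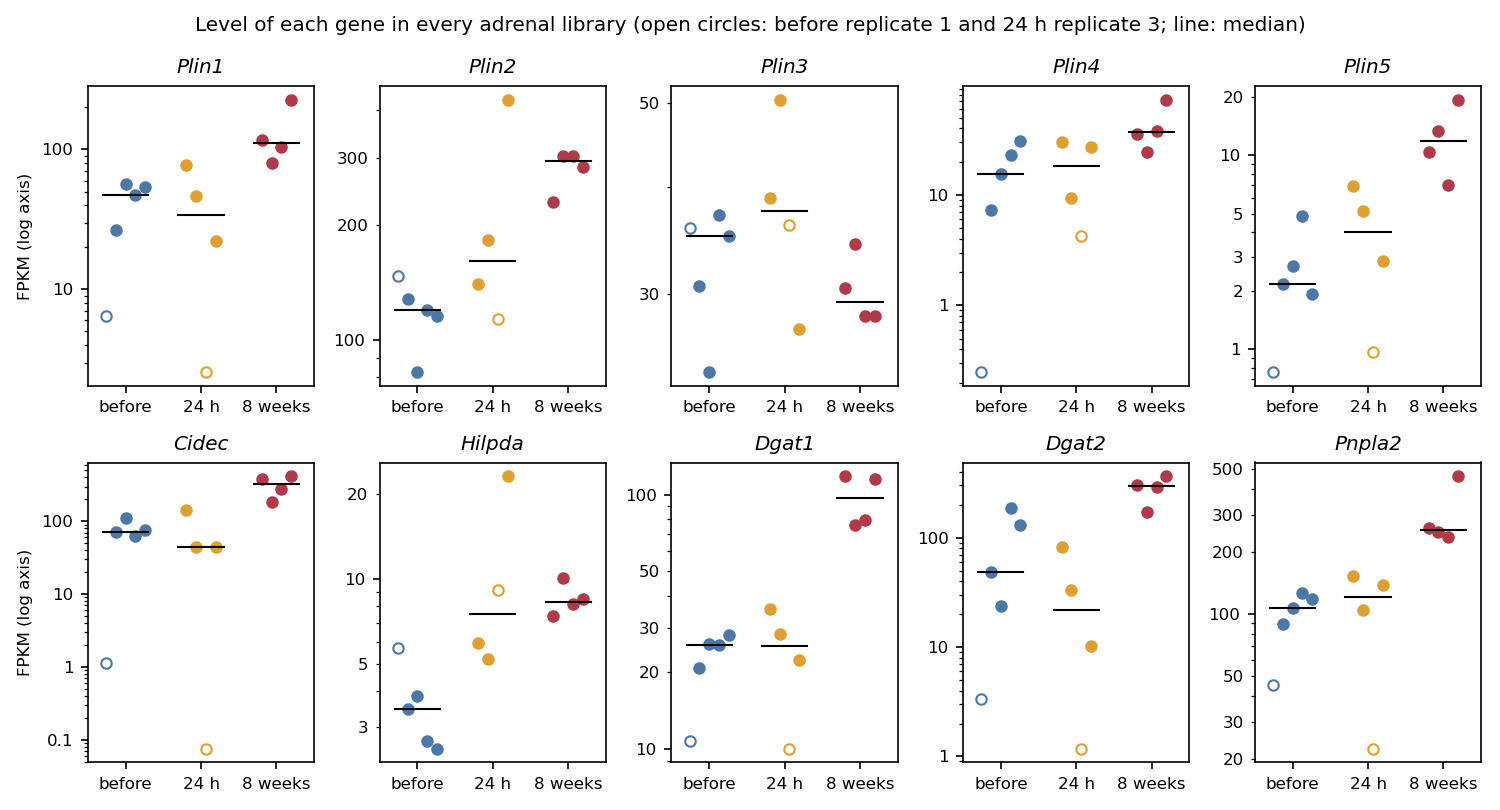
FPKM of each gene (log axis) in every library, 1 point per library, grouped as before TAM, 24 h and 8 weeks, with the median as a line and before replicate 1 and 24 h replicate 3 as open circles. The open circles are lowest for Cidec, Plin1, Plin4, Plin5, Dgat1, Dgat2 and Pnpla2 in their groups but not for Plin3 or Hilpda, and for 7 genes every 8-week point is above every point from before.

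Dgat1, on chromosome 15 (chr15:76502015-76511818, minus strand, mm10), encodes an enzyme of the endoplasmic reticulum that adds the last fatty acid to make triglyceride. Its level was 10.7, 20.9, 25.9, 25.7 and 28.1 FPKM in the 5 libraries from before TAM, 35.6, 28.3, 10.01 and 22.4 at 24 h, and 118, 76.1, 79.4 and 115 at 8 weeks. The 24 h and before libraries overlapped, and every 8-week library was more than double the highest earlier one. Dgat1 had the smallest adjusted p of the 10 genes at 8 weeks against before, with a log2 fold change of 2.25 (SE 0.35, adjusted p = 0.0004), a fold of 4.77. Against 24 h Dgat1 rose by 2.10 on the log2 scale (SE 0.38, adjusted p = 0.0051), and 24 h against before gave 0.15 (SE 0.35, adjusted p = 0.8).

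Dgat2 (chr7:99153663-99182713, minus strand) encodes the unrelated enzyme that catalyses that step and is known for abundance in fat and liver. It read 3.38, 48.5, 23.8, 185 and 131 FPKM before TAM, 82.3, 33.1, 1.18 and 10.3 at 24 h, and 300.1, 172, 290.3 and 365 at 8 weeks. The 2 libraries lowest in fat-cell RNA were also lowest here, and the lowest 8-week library lay below the highest library from before. The log2 fold change at 8 weeks was 2.00 (SE 1.02, adjusted p = 0.14) against before and 3.26 (SE 1.16, adjusted p = 0.062) against 24 h, neither of which was called, and the one against 24 h passed without before replicate 1 (adjusted p = 0.04) or 24 h replicate 1 (adjusted p = 0.035). The 24 h libraries differed from before by -1.26 (SE 1.04, adjusted p = 0.44). The ratio of Dgat2 to Dgat1 FPKM ran from 0.316 to 7.19 before TAM, from 0.117 to 2.31 at 24 h and from 2.26 to 3.66 at 8 weeks. In each of the earlier groups its lowest value came from the library lowest in fat-cell RNA.

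Pnpla2 (chr7:141455188-141460743, plus strand) encodes ATGL, the lipase that takes the first fatty acid from triglyceride. Its level was 45.2, 89.5, 106, 126 and 118 FPKM before TAM, 153, 105, 22.3 and 138 at 24 h, and 260.3, 249, 235.1 and 464 at 8 weeks. Every 8-week library was above every earlier one, and replicate 4 stood apart from the other 8-week libraries. Pnpla2 rose at 8 weeks by a log2 fold change of 1.77 against before (SE 0.47, adjusted p = 0.011) and of 1.61 against 24 h (SE 0.50, adjusted p = 0.04). The adjusted p against 24 h lay between 0.022 and 0.099 when single libraries were left out, and the call was lost without any 1 of 9 libraries: before replicates 2, 4 and 5, 24 h replicates 2 and 4, and each of the 8-week replicates. For 24 h against before the value was 0.16 (SE 0.46, adjusted p = 0.85). Of the 2 transcript models of Pnpla2 listed throughout, 1 held between 96.4% and 98.6% of its FPKM in every library.

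Hilpda (chr6:29272626-29275449, plus strand) encodes a small droplet protein, induced by hypoxia and fatty acids, that inhibits ATGL. It read 5.72, 3.47, 3.86, 2.68 and 2.51 FPKM before TAM, 5.92, 5.19, 9.16 and 23.2 at 24 h, and 7.41, 10.1, 8.15 and 8.52 at 8 weeks. Every 8-week library was above every library from before, the highest 24 h value was in replicate 4, and 24 h replicate 2 lay below before replicate 1. Hilpda was called higher at 24 h against before, with a log2 fold change of 1.63 (SE 0.43, adjusted p = 0.019). Omitting 24 h replicate 4 gave 0.86 (adjusted p = 0.058), and without before replicate 5 it was 1.53 (adjusted p = 0.05, not called). Its value at 8 weeks against before was 1.36 (SE 0.43, adjusted p = 0.025), and the call was lost (adjusted p 0.056 to 0.065) when before replicate 2, 4 or 5 or 8 weeks replicate 2 was left out. The value at 8 weeks against 24 h was -0.27 (SE 0.45, adjusted p = 0.69), turning to 0.47 without 24 h replicate 4. Counts behind Hilpda were small, from 51 to 505 reads per library.

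Plin2 (chr4:86656565-86670059, minus strand) encodes the coat protein found on droplets of most cell types, steroid-making cells and lipid-laden macrophages among them. Its level was 147, 128, 82.5, 120.2 and 116 FPKM before TAM, 139.9, 183, 114 and 425 at 24 h, and 230.1, 303, 302 and 284 at 8 weeks. The 8-week libraries were all above those from before, whereas 24 h replicate 4 was the highest of the 13, replicate 2 at 24 h was above the libraries from before, and 24 h replicates 1 and 3 were within their range. Plin2 rose at 8 weeks against before by a log2 fold change of 1.38 (SE 0.35, adjusted p = 0.0083), a fold of 2.6. The 24 h value against before was 0.92 (SE 0.35, adjusted p = 0.083). It was 0.30 (adjusted p = 0.4) without 24 h replicate 4 and 1.18 (adjusted p = 0.015) without 24 h replicate 3, so it passed or missed the threshold by which library was left out. Later, 8 weeks against 24 h, it was 0.45 (SE 0.37, adjusted p = 0.39), and 1.04 (adjusted p = 0.016) without 24 h replicate 4. In replicate 4 at 24 h, Plin2 and Hilpda were both at their highest. Of the 10 macrophage markers, 5 were also highest of the 24 h group there (Gpnmb at 511 FPKM, Cd68 at 326, Trem2 at 79.4, Csf1r at 70.5 and C1qb at 398), while Lyz2 was lowest there at 1083 and the summed markers, at 2994 FPKM, were within the 24 h range. Summed cortex markers stood at 9052 FPKM. The part of these markers, and of the low medulla signal of that library, in the values of Plin2 and Hilpda was not tested.

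Plin5 (chr17:56111601-56117548, minus strand) encodes the perilipin of oxidative tissues such as heart and brown fat, where it links droplets with mitochondria. It read 0.756, 2.16, 2.68, 4.89 and 1.92 FPKM before TAM, 6.97, 5.18, 0.959 and 2.84 at 24 h, and 10.4, 13.4, 7.03 and 19.4 at 8 weeks. The lowest 8-week library was only just above 24 h replicate 1, and no 8-week library overlapped an earlier one. At 8 weeks Plin5 rose against before by a log2 fold change of 2.46 (SE 0.57, adjusted p = 0.0048), a fold of 5.5. The value against 24 h was 1.73 (SE 0.60, adjusted p = 0.056), passing the threshold without before replicate 1 (adjusted p = 0.043) or 24 h replicate 1 (adjusted p = 0.037). Its 24 h value against before was 0.73 (SE 0.55, adjusted p = 0.4). Between 2 transcript models, 1 held 38.8 ± 24.5% of Plin5 FPKM before TAM, 55.2 ± 15.3% at 24 h and 59.8 ± 10.3% at 8 weeks (SD), and in 1 library from before it was at 0.

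Plin1 (chr7:79721164-79732776, minus strand) encodes the main droplet coat of fat cells, which restrains lipolysis until it is phosphorylated. Its level was 6.46, 26.5, 56.5, 47.1 and 54.0 FPKM before TAM, 78, 46.2, 2.56 and 22.1 at 24 h, and 118, 80.6, 104 and 227 at 8 weeks. Every 8-week library was above every earlier one, although Plin1 was not called. The log2 fold change at 8 weeks was 1.92 against before (SE 0.75, adjusted p = 0.062), and 1.88 (adjusted p = 0.014) without 24 h replicate 3. Against 24 h the value was 1.92 (SE 0.81, adjusted p = 0.1), and at 24 h against before it was -0.00 (SE 0.75, adjusted p = 1).

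Cidec (chr6:113424634-113435760, minus strand) encodes the protein that fuses small droplets into the large droplet of white fat cells. It read 1.12, 70.8, 111, 63.0 and 76.9 FPKM before TAM, 142, 44.95, 0.0749 and 44.9 at 24 h, and 381, 186, 274 and 417 at 8 weeks. The ratio of the highest to the lowest library was the widest of the 10 genes, and its low end rested on 4 reads in 24 h replicate 3. No 8-week library overlapped an earlier one, yet the log2 fold change of 2.41 against before had a standard error of 1.17 (adjusted p = 0.12). Without 24 h replicate 3 the value was 2.37 (adjusted p = 0.028). Against 24 h it was 2.53 (SE 1.28, adjusted p = 0.17), and at 24 h against before -0.12 (SE 1.15, adjusted p = 0.96).

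Plin4 (chr17:56100591-56109802, minus strand) encodes a perilipin of fat cells that binds young droplets. Its level was 0.248, 7.26, 15.4, 23.0 and 30.7 FPKM before TAM, 29.9, 9.31, 4.20 and 27.0 at 24 h, and 35.6, 24.3, 38.1 and 72.6 at 8 weeks. The groups overlapped, since 8 weeks replicate 2 lay below before replicate 5. Its log2 fold change at 8 weeks against before was 1.61 (SE 0.87, adjusted p = 0.16), and at 24 h against before 0.26 (SE 0.87, adjusted p = 0.87). Plin3 (chr17:56278962-56290511, minus strand) encodes a perilipin that moves from the cytosol to newly formed droplets in many cell types. It read 35.8, 30.7, 24.3, 37.1 and 35.0 FPKM before TAM, 38.8, 50.5, 36.1 and 27.3 at 24 h, and 30.5, 34.3, 28.3 and 28.3 at 8 weeks. Plin3 had the narrowest such ratio, with all groups overlapping, and its log2 fold change at 8 weeks against before was 0.03 (SE 0.16, adjusted p = 0.9), a sign that turned to -0.10 without TMM scaling. Its 24 h value against before was 0.25 (SE 0.16, adjusted p = 0.31).

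In all, 7 of the 10 genes had FPKM at 8 weeks that did not overlap those from before, all higher, where 44.6% of all genes did not overlap, 18.1% higher. Against 24 h there were 6 such genes (Plin1, Plin5, Cidec, Dgat1, Dgat2 and Pnpla2), all higher, where 23.2% of all genes did not overlap, 9.92% higher. None of the 10 was free of overlap at 24 h against before (0 of 10), where 17.8% of all genes were, 9.75% higher. Without TMM scaling the median log2 fold change of all genes at 8 weeks against before was -0.097, and 44.2% of calls were higher, beside 55.5% with it. Against 24 h these shares of calls that were higher were 36.1% without scaling and 48.9% with it.

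The order of levels per transcript length changed between the groups. Before TAM the mean FPKM was highest for Plin2 (119 ± 23.6), then Pnpla2 (97.0 ± 32.1), Dgat2 (78.4 ± 76.9) and Cidec (64.6 ± 40.0), and lowest for Hilpda (3.65 ± 1.29) and Plin5 (2.48 ± 1.52; SD, n = 5). At 24 h the order began with Plin2 (216 ± 143), Pnpla2 (104 ± 58.3) and Cidec (58.0 ± 59.9; SD, n = 4). At 8 weeks it began with Cidec (314 ± 105), Pnpla2 (302 ± 108), Dgat2 (282 ± 80.3) and Plin2 (279.9 ± 34.3; SD, n = 4). Of the 9 neighbouring pairs in each order, all 9 overlapped between libraries before TAM and at 24 h. At 8 weeks 6 overlapped, and the ranges were apart between Plin2 and Plin1, between Dgat1 and Plin4 and between Plin3 and Plin5.

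Perilipin RNA as a whole was 207 ± 25.7 FPKM before TAM, 312 ± 143 at 24 h and 498 ± 92.1 at 8 weeks (SD, n = 5, 4 and 4). Plin2 was the largest share in every library, 57.8 ± 13.4% before, 66.6 ± 15.5% at 24 h and 57.2 ± 9.65% at 8 weeks. The share of Plin3 was between 13.4% and 18.8% before TAM, between 5.42% and 22.9% at 24 h and between 4.48% and 7.52% at 8 weeks, so that no 8-week library reached those from before. That of Plin1 ran from 3.39% to 31.2% before TAM, from 1.62% to 26.6% at 24 h and from 17.7% to 36.0% at 8 weeks, and was least in before replicate 1 and 24 h replicate 3. Plin5 never exceeded 3.07%.

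**Figure D2:**
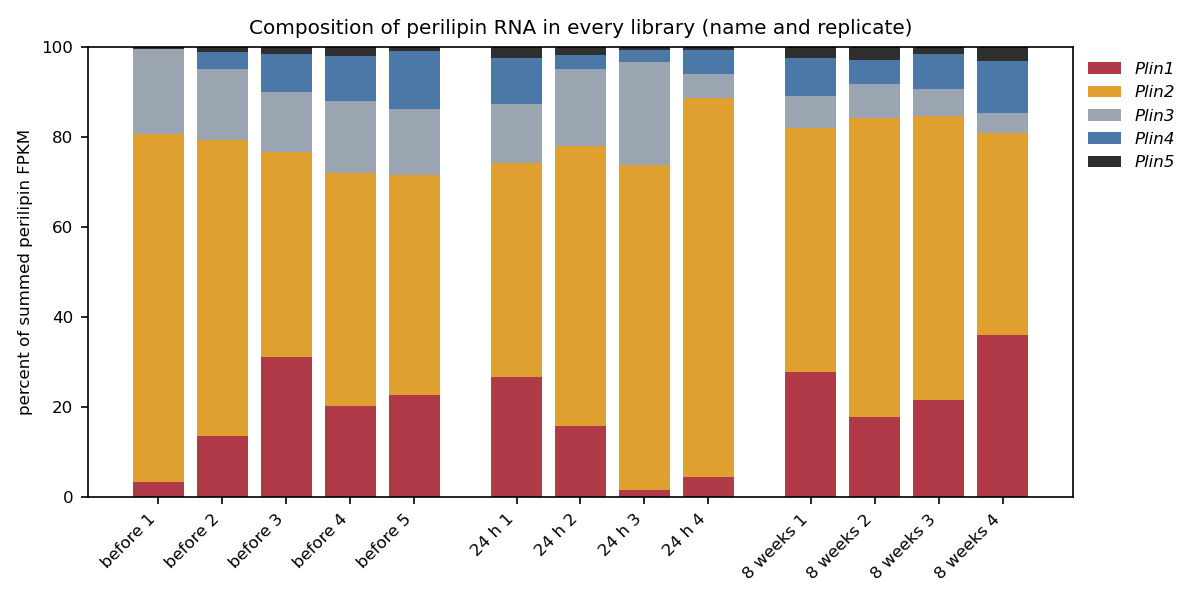
Stacked bars give the percent of summed perilipin FPKM from Plin1 to Plin5 in each library, named by group and replicate. Plin2 is the largest block in every bar, the Plin3 block is at most 7.52% of every 8-week bar, and the Plin1 block is smallest in before replicate 1 and 24 h replicate 3.

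The 2 libraries nearly without fat-cell markers parted the genes within each group. In before replicate 1, 7 of the 10 were below all other libraries from before, where 20.3% of all genes were. Relative to the median of the other 4, Plin4 stood at 1.29%, Cidec at 1.52%, Dgat2 at 3.76%, Plin1 at 12.8%, Plin5 at 31.2%, Pnpla2 at 40.4% and Dgat1 at 41.5%. Plin3 stood at 109%, within the range, while Plin2 at 125% and Hilpda at 186% were above all others, where 28.5% of all genes were above. By the same measure the fat-cell markers Adipoq and Cfd stood at 1.71% and 0.929%. The markers Acvr1c and Trarg1 were less low. Acvr1c stood at 0.914 FPKM, beside 1.16 to 3.12 FPKM in the other libraries from before. Trarg1 stood at 0.881 FPKM, beside 3.74 to 10.9 FPKM in those libraries.

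In 24 h replicate 3, 8 of the 10 were below all other 24 h libraries, where 31.3% of all genes were. A further 44.3% of all genes were above all other 24 h libraries there. The order was similar, with Cidec at 0.167% of the median of the others, Dgat2 at 3.55%, Plin1 at 5.54%, Plin4 at 15.6%, Pnpla2 at 16.2%, Plin5 at 18.5%, Dgat1 at 35.4% and Plin2 at 62.2%. Plin3 at 93.1% and Hilpda at 155% lay within the range, and Adipoq stood at 0.116%. Summed cortex, medulla and macrophage markers were also lowest of the 24 h group in that library, at 4355, 18.6 and 2019 FPKM. Of the 10 macrophage markers, 7 were lowest of the group there, so fat-cell RNA was not its only difference. In before replicate 1 these sums stood at 23890, 3680 and 889 FPKM, within the range of the other libraries from before.

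**Figure D3:**
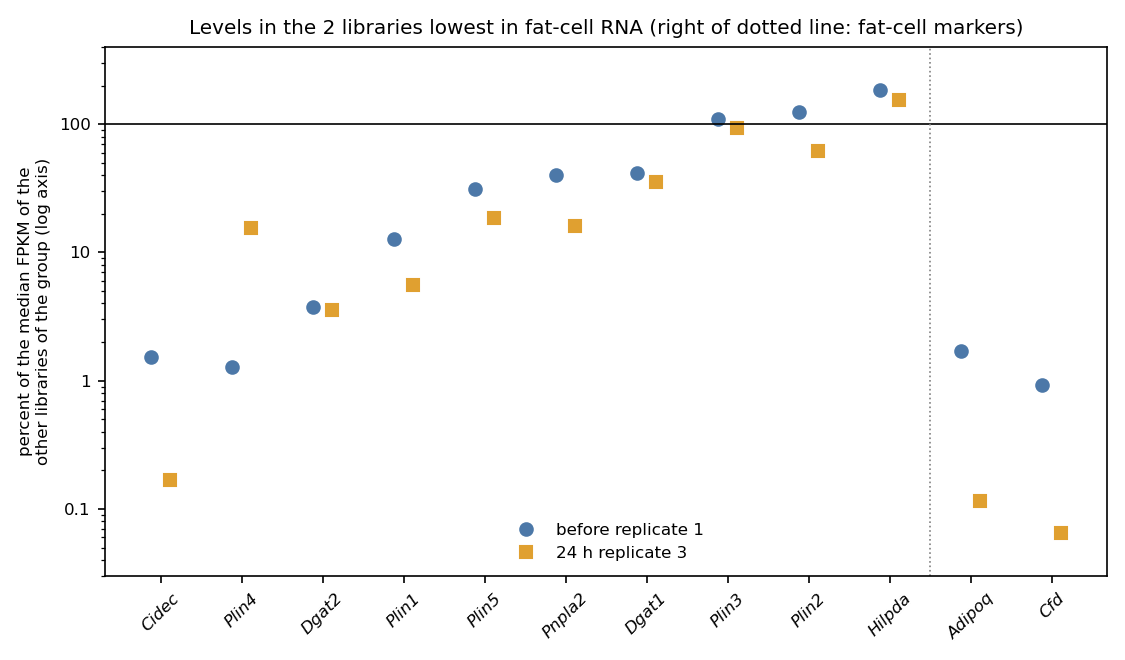
Level of each gene in before replicate 1 (circles) and 24 h replicate 3 (squares) as percent of the median FPKM of the other libraries of the group (log axis), with the line at 100% and the fat-cell markers Adipoq and Cfd right of the dotted line. Cidec is at 1.52% and 0.167%, Dgat1 at 41.5% and 35.4%, and Hilpda at 186% and 155%.

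The test was repeated with the fat-cell level of each library (the mean log2 CPM, counts scaled to library size, of the 8 markers) as a covariate. The slope was called for 6 of the 10 genes, where 3.98% of all genes were called, 1.43% with a positive slope. In log2 per log2 unit it was 1.26 for Cidec (SE 0.12, adjusted p = 0.00028), 0.80 for Dgat2 (SE 0.13), 0.60 for Plin1 (SE 0.07), 0.37 for Plin5 (SE 0.07), 0.33 for Pnpla2 (SE 0.05) and 0.25 for Dgat1 (SE 0.02). It was 0.52 for Plin4 (SE 0.14, adjusted p = 0.068), which was not called. For Plin2 (0.04, SE 0.08), Plin3 (0.01, SE 0.03) and Hilpda (-0.05, SE 0.09) the adjusted p was between 0.73 and 0.87. A called slope was found for all 8 fat-cell markers, which define the covariate. It was found for 2 of 5 brown fat markers and 0 of the 10 macrophage markers. The calls of slopes rested on before replicate 1 and 24 h replicate 3. Without both, 0 of the 10 and 1 gene of 14078 (0.0071%) were called. None of the 8 fat-cell markers that define the covariate was called then either. The values for Cidec (0.63), Dgat2 (0.87), Plin1 (0.65), Plin5 (0.31), Pnpla2 (0.24) and Dgat1 (0.34) were still all above 0. In that fit the slopes of Hilpda (-0.46, SE 0.32) and Plin2 (-0.39, SE 0.21) were below 0 and were not called either.

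**Figure D4:**
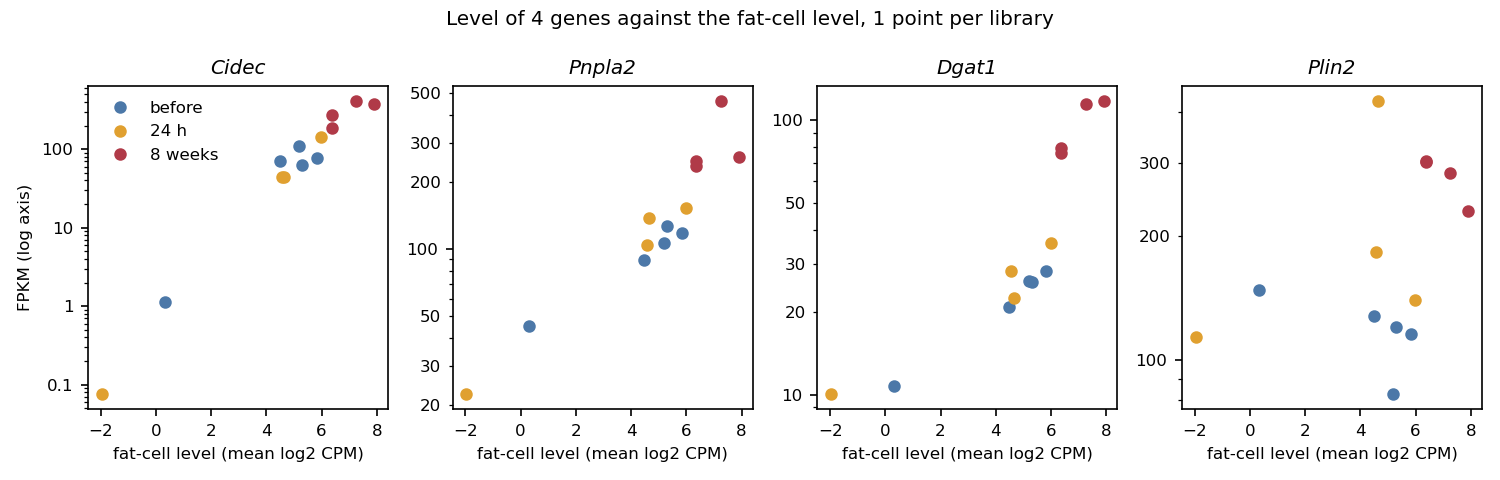
FPKM (log axis) of Cidec, Pnpla2, Dgat1 and Plin2 against the fat-cell level (mean log2 CPM of 8 markers), 1 point per library, coloured by group. Before replicate 1 is at 0.31 and 24 h replicate 3 at -1.97 on the horizontal axis, the 8-week libraries lie from 6.36 to 7.91, and Plin2 is at 230.1 to 303 FPKM in these and at 147 and 114 FPKM in before replicate 1 and 24 h replicate 3.

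With the fat-cell level in the fit, the 5 genes Dgat1, Plin5, Hilpda, Plin2 and Pnpla2 were called higher at 8 weeks against before, where 35.4% of all genes were called, 19.7% higher. The log2 fold change was 1.63 for Dgat1 (SE 0.12, adjusted p = 1e-05), 1.60 for Plin5 (SE 0.37, adjusted p = 0.0056), 1.53 for Hilpda (SE 0.52, adjusted p = 0.037), 1.24 for Plin2 (SE 0.42, adjusted p = 0.038) and 0.92 for Pnpla2 (SE 0.24, adjusted p = 0.012). Without the covariate the values of these genes were 2.25, 2.46, 1.36, 1.38 and 1.77, in the same order. All but the value of Hilpda were thus less with the covariate. Every 8-week library had a fat-cell level (6.36 to 7.91) above the highest earlier one (5.99). The 8-week contrasts with the covariate therefore extend the slope beyond the earlier libraries. Rises with fat-cell RNA and rises beyond it cannot be told apart in them. None of the other genes was called, at 0.75 for Plin4, 0.57 for Plin1, 0.53 for Dgat2, 0.00 for Plin3 and -0.17 for Cidec, whose sign turned. Hilpda was called at 24 h against before (1.62, SE 0.43, adjusted p = 0.02), where 21.5% of all genes were, 12.9% higher. Dgat1 at 8 weeks against 24 h was the only gene of the 10 called (1.33, SE 0.14, adjusted p = 0.0011), where 14.6% of all genes were, 6.58% higher. Macrophage markers rose at both later times, and their part in the values of Plin2 and Hilpda was not tested.

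**Figure D5:**
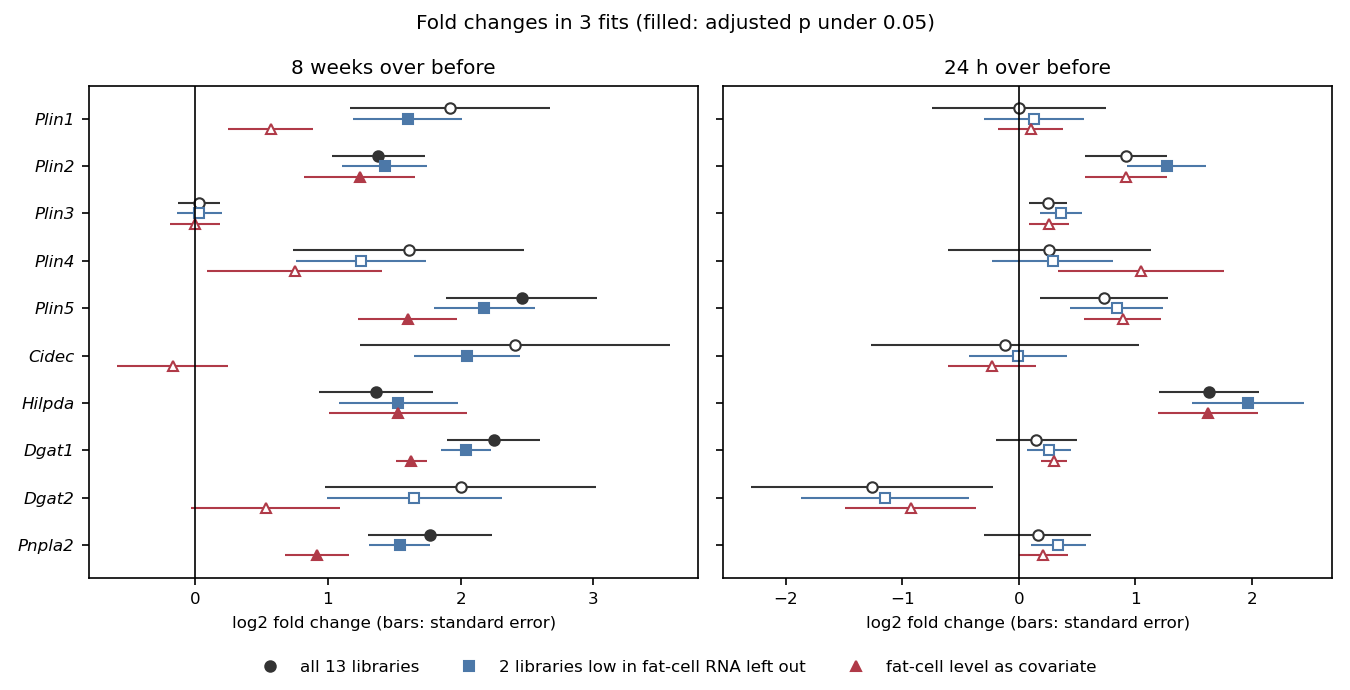
Log2 fold change with its standard error for each gene at 8 weeks over before (left) and 24 h over before (right), from all 13 libraries (circles), without the 2 libraries low in fat-cell RNA (squares) and with the fat-cell level as covariate (triangles); filled symbols have an adjusted p under 0.05. With the covariate, Dgat1 is at 1.63 at 8 weeks while Cidec is at -0.17.

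Leaving out before replicate 1 and 24 h replicate 3 lowered the standard errors of the genes with the steepest slopes, that of Cidec at 8 weeks against before being 0.40, beside 1.17 with them. Of the 10 genes, 7 were then called at 8 weeks against before, all higher, where 45.6% of all genes were, 23.5% higher. Plin1 (1.60, SE 0.41, adjusted p = 0.0082) and Cidec (2.05, adjusted p = 0.0018) joined the other 5, while Plin4 (1.25, adjusted p = 0.056) and Dgat2 (1.65, adjusted p = 0.061) did not. The libraries left out were picked for low fat-cell RNA, and Plin1 and Cidec were lowest of their groups in them. The smaller standard errors and the added calls depend on that choice and are no separate evidence of a rise. Hilpda (1.97, SE 0.48, adjusted p = 0.012) and Plin2 (1.27, SE 0.34, adjusted p = 0.019) were called at 24 h against before, where 25.2% of all genes were, 15.4% higher. Between 8 weeks and 24 h Plin1, Plin5, Cidec, Dgat1, Dgat2 and Pnpla2 were called higher, where 29.9% of all genes were, 12.9% higher. With the covariate as well, 4 remained called at 8 weeks against before (Plin2, Hilpda, Dgat1 and Pnpla2, the last just under the threshold at an adjusted p that rounds to 0.05), where 19.3% of all genes were, 11.1% higher, and Plin5 was not (1.63, adjusted p = 0.087). That fit called Hilpda and Plin2 at 24 h against before, where 24.6% of all genes were called, 14.9% higher, and Dgat1 at 8 weeks against 24 h, where 0.646% of all genes were called, 0.178% higher.

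For each gene the 3 genes with the nearest profile were found, as the root mean square difference of log2 CPM over the 13 libraries after centring, a description with no test. Cidec was nearest to Adipoq (0.322), Cfd (0.544) and Retn (0.736), all fat-cell markers, beside a spread of its own of 3.29. Dgat2 was nearest to Scd1 (0.607), Orm1 and the marker Adrb3, Plin1 to Acsl1 (0.53), C1qtnf9 and Slc1a5, and Plin4 to Lgals12 (0.835), Ablim3 and the brown fat marker Slc36a2. Pnpla2 was nearest to Lipe (0.268), the gene of hormone-sensitive lipase, then Acacb and Ntrk3. For Dgat1 the list was Mpc1 (0.24), Chpt1 and Ltc4s, and for Plin5 it included Adamtsl3 (0.377) and Adra1a. Plin2 was nearest to Nuak2 (0.17), Rasa4 and Psmb8, Hilpda to Litaf (0.321), Nqo1 and Sfn, and Plin3 to 0610010K14Rik (0.147), Gm2a and Arhgef3. Against the mean profile of each marker list, Cidec (0.799), Dgat2 (0.975), Plin1 (1.04) and Plin4 (1.55) were nearest to fat cells, beside own spreads of 3.29, 2.54, 1.73 and 2.03. For the other 6 genes the nearest list was macrophages, at distances from 0.847 to 1.33, beside own spreads from 0.234 to 1.4. The distance was below the own spread for Plin5 (1.23 and 1.4), Dgat1 (1.16 and 1.18) and Hilpda (0.847 and 0.874). It was above the own spread for Plin2, Plin3 and Pnpla2. No likeness to a list is read from these distances. A flat profile such as that of Plin3 is close to many others.

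Other genes of droplet and fatty acid metabolism were read from lists of 40 genes in all that were listed in every library. Of the 40, 26 were called at 8 weeks against before, 20 higher and 6 lower, at 24 h against before 5 (2 higher and 3 lower), and at 8 weeks against 24 h 19 (16 higher and 3 lower), beside the shares of all genes given above. Among 12 genes of the steps before DGAT, acyltransferases (Mogat1 of the monoacylglycerol route among them) and the phosphatases Lpin1, Lpin2 and Lpin3, 5 rose and 1 fell at 8 weeks against before, with a list median log2 fold change of 0.32. Lpin1, a phosphatidate phosphatase, rose to 27.2 ± 8.31 FPKM at 8 weeks, against 9.99 ± 2.57 before (log2 fold change 1.57, adjusted p = 0.00067). Agpat9 (now Gpat3), a glycerol-phosphate acyltransferase, was at 23.5 ± 11.8 FPKM at 8 weeks and 3.09 ± 2.03 before (3.06, adjusted p = 0.0011). Lpin3 fell to 3.46 ± 1.15 FPKM at 8 weeks, against 24.8 ± 3.29 before (-2.72, adjusted p = 0.0012).

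Of 7 genes of lipolysis, 5 rose and 1 fell at 8 weeks against before, with a median log2 fold change of 1.41. Abhd6, a monoacylglycerol lipase, fell to 16.7 ± 1.73 FPKM at 8 weeks, against 62.2 ± 32.7 before (-1.76, adjusted p = 0.0016), and it was lower at 24 h as well (-1.81, adjusted p = 0.0028). Aqp7, the glycerol channel of fat cells, was at 22.04 ± 9.44 FPKM at 8 weeks and 2.28 ± 1.63 before (3.39, adjusted p = 0.0077), and Mgll, the lipase of the last step, rose by 1.41 (adjusted p = 0.0091). Abhd5, the activator of ATGL, rose by 0.80 (adjusted p = 0.028) and G0s2, its inhibitor, by 1.16 (adjusted p = 0.048). In the fit with the fat-cell level, where 3.98% of all genes had a called slope, 6 of the 7 lipolysis genes had one, beside 3 of 12 genes of triglyceride synthesis, 2 of 8 other droplet genes, 3 of 9 of fatty acid entry and 1 of 4 sterol ester genes. Without before replicate 1 and 24 h replicate 3, 0 of these genes had one.

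Among 8 other droplet genes, 3 rose and 1 fell at 8 weeks against before. Hsd17b11 rose by a log2 fold change of 1.02 (adjusted p = 0.0012) and Bscl2, the seipin gene needed to build droplets, by 1.15 (adjusted p = 0.0013). Cidea rose to 330 ± 178 FPKM at 8 weeks, against 27.3 ± 27.2 before (3.71, adjusted p = 0.033). It stood at 0.21 FPKM in before replicate 1 and 0.219 in 24 h replicate 3. Tmem159 (now Ldaf1), the partner of seipin at forming droplets, fell to 20.7 ± 4.67 FPKM at 8 weeks, against 49.8 ± 13.8 before (-1.15, adjusted p = 0.0016). Of 9 genes of fatty acid entry 6 rose and 1 fell. Fabp5, a fatty acid carrier abundant in macrophages, stood at 37.2 ± 13.6 FPKM before, 331 ± 137 at 24 h and 909.8 ± 141 at 8 weeks, rising by 3.2 at 24 h (adjusted p = 0.00011) and 4.75 at 8 weeks (adjusted p = 4.7e-06) against before. Acsl4, an acyl-CoA synthetase, had a log2 fold change of -1.01 at 24 h (adjusted p = 0.049) and -2.59 at 8 weeks (adjusted p = 0.00015) against before. Lpl, lipoprotein lipase, rose by 3.10 at 8 weeks against before (adjusted p = 0.00033).

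Of 4 sterol ester genes 2 fell and 1 rose at 8 weeks against before, with a median log2 fold change of -0.27. Soat1, which esterifies cholesterol, fell to 37.7 ± 5.41 FPKM at 8 weeks, against 109 ± 19.5 before (-1.39, adjusted p = 0.003), and Nceh1, a cholesterol ester hydrolase, fell by 0.99 (adjusted p = 0.0062). Soat2 was called higher (2.52, adjusted p = 0.028), but its 8-week values were 0.411, 0.646, 6.16 and 0.464 FPKM, with the high one in replicate 3, which also had Alb at 13280 FPKM. Against 24 h the lowest p of these lists belonged to Lpin3 (-3.01, adjusted p = 0.0044), Lpin1 (1.61, adjusted p = 0.0048), Bscl2 (1.30, adjusted p = 0.0048) and Slc27a1, a fatty acid transporter (1.98, adjusted p = 0.0051). The remaining calls at 24 h against before were Agpat4 (0.91, adjusted p = 0.02) and Agpat3 (-0.58, adjusted p = 0.046), acyltransferases of phosphatidic acid synthesis.

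In the authors' deposited table of 8 weeks over before, which works per transcript model on log2 FPKM, the log2 ratio was 2.173 for Dgat1 (q = 0.0029), 1.25 for Plin2 (q = 0.0024), 1.28 for Hilpda (q = 0.0084) and 1.66 for the main Pnpla2 model (q = 0.012), beside 1.85 (q = 0.023) and 2.74 (q = 0.41) for the other Pnpla2 models. In the authors' deposited table Plin5 had a model at 1.92 (q = 0.005) and another at 5.17 (q = 0.23), and both Plin1 models stood at 2.05 (q = 0.052 and 0.13). Dgat2 at 2.79 (q = 0.1), Plin4 at 2.45 (q = 0.22), Plin3 at -0.09 (q = 0.62) and the Cidec models at 2.88 (q = 0.091) and 3.52 (q = 0.16) were above a q of 0.05 in the authors' deposited table.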

How the data were processed

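RNA of mouse adrenal gland was sequenced after a stranded mRNA library kit, per the labels' protocols, with bcl2fastq 2.17 and TopHat2 2.0.14 and the builds mm10 and GRCm38, per the submitters' processing notes. Tables deposited by the authors hold expected counts and FPKM per RefSeq transcript and library, per the file headers; between 43.3% and 46.4% of counts per library were whole (to within 1e-06), and FPKM equalled the count over transcript width and 1 library total in 100% of values checked (to within 0.1%). A deposited table of 8 weeks and before gives log2 ratios, p-values and q-values, per the file headers; no source used here names the counting tool or the filter that made the lists. The 18738 transcripts listed in all 3 tables were summed to 14078 genes.

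Summed counts were rounded and tested with edgeR 4.0.16 (R 4.3.3; quasi-likelihood, TMM, filterByExpr) in 1 fit of 13 libraries with no block term and Benjamini-Hochberg adjustment over all genes and a threshold of 0.05. All p-values of genes are from that test unless the authors' table is named. DESeq2 1.42.0, limma 3.58.1 and the other alternatives are given in the closing section. Steps were tested on simulated data. The genes and lists were chosen with earlier results of these data known, and the other lipid genes named are the 3 lowest in p of each list and comparison, with a few more chosen after their values were seen (G0s2, Abhd5 and Cidea). Coordinates are 1-based on mm10. The result of 1 gene that the profile search names is not reported here.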

Additional observations from a re-analysis of the deposited data

Results flagged for a closer look

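Pnpla2 FPKM in 8 weeks replicate 4 was 463.5, against 235.1 to 260.3 in the other 8-week libraries. The gap to the nearest library was 0.89 of the range of the group, above the 95% critical value of Dixon's test for 4 libraries. It was the only one of 42 groups of values tested that passed, and chance passes about 1 in 20. Without that library the log2 fold change of Pnpla2 at 8 weeks against before was 1.5, and against 24 h 1.34 (adjusted p = 0.099). The same library was the highest of its group for Plin1, Plin4, Plin5, Cidec and Dgat2, with summed brown fat markers at 1865 FPKM, the highest of the 13 libraries, and summed fat-cell markers at 6133 FPKM. Their part in the Pnpla2 value was not tested.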

How the results depend on the processing

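At 8 weeks against before Dgat1, Plin2 and Pnpla2 were called in all 27 settings, Plin5 in 26 and Hilpda in 22. Leaving out single libraries gave 4 to 7 genes called at 8 weeks against before, 0 to 2 at 24 h against before (0 without before replicate 5 or 24 h replicate 4, 2 without 24 h replicate 3) and 1 to 4 at 8 weeks against 24 h. The other lipid genes called ran from 21 to 26, from 2 to 8 and from 12 to 20. Over all 14078 genes the calls in those fits ran from 4153 to 6706, from 1851 to 3998 and from 1782 to 4300.

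For 24 h against before the 10 genes gave 2 calls with DESeq2, 4 with limma voom, 0 with only those groups in the fit (all their transcripts or the shared ones), and 2 without before replicate 1 and 24 h replicate 3, with or without the fat-cell covariate. Calls over all genes numbered 3411 with DESeq2, 5378 of 14078 with voom and 2108 with only those groups. Without those libraries they numbered 3551 (25.2%), and 3467 (24.6%) with the covariate as well. Other lipid genes gave 8 calls in either fit without those libraries. Between 8 weeks and 24 h the 10 genes gave 4 with DESeq2, voom or limma on log2(FPKM + 0.1), 6 without those libraries, and 1 with only those groups in the fit, with the covariate, or with covariate and libraries left out. Calls over all genes numbered 3979 with DESeq2, 4201 with voom, 3635 with limma on FPKM and 4216 without those libraries. They numbered 973 with only those groups, 2058 with the covariate and 91 with covariate and libraries left out. Other lipid genes then gave 9 with only those groups, and 1 with covariate and libraries left out, where at 8 weeks against before they gave 12. With a replicate block the 10 genes gave 0 at 24 h against before and 1 at 8 weeks against 24 h, and other lipid genes 2 and 11. Over all genes the block gave 1312 and 1661. Same-numbered libraries correlated at -0.125 to 0.277, and 2 of 12 pairs exceeded 0.1. The labels state no pairing, and these correlations cannot settle whether the numbers pair the samples.

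Signs turned for Plin3 at 8 weeks against before (-0.10 without scaling and with implied totals, -0.04 with voom, -0.09 on FPKM, -0.03 with all transcripts of those groups, and -0.05 to 0.07 over single libraries left out) and Cidec (-0.17 with the covariate). For 24 h against before they turned for Cidec with voom (0.42), Pnpla2 on FPKM (-0.13), and over single libraries left out for Cidec (-1.04 to 0.31), Dgat1 (-0.09 to 0.44), Plin1 (-0.64 to 0.40), Plin4 (-0.10 to 0.68) and Pnpla2 (-0.07 to 0.52). For 8 weeks against 24 h they turned for Hilpda (0.60 with voom, 0.51 with covariate and libraries left out, -0.50 to 0.47 over single libraries left out) and Plin4 (-0.31 with the covariate, -0.32 with libraries left out too). The cause was not tested.

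Over all genes, calls at 24 h against before numbered 2708, with 5378 by voom and 1312 with the block. For 8 weeks against before they numbered 5193, with 8101 by voom, 7895 with all transcripts of those groups and 2719 with covariate and libraries left out. Between 8 weeks and 24 h they numbered 2923, with 973 in the fit of those groups, 1661 with the block, 91 with covariate and libraries left out, and 1782, 1808 and 1941 without 8 weeks replicate 1, 2 or 4. No gene fell to the low-count filter. Counts of 4 to 51 reads limit Cidec in 24 h replicate 3, Cidec, Plin4 and Plin5 in before replicate 1, and Hilpda. The fit with the fat-cell covariate and both libraries left out was chosen after seeing the data.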
